A study of Mus musculus with 6 samples.

Results

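The 10 genes described here encode muscle ubiquitin ligases (Trim63, Fbxo32, Trim54 and Trim55), FoxO transcription factors (Foxo1 and Foxo3) and proteins of autophagy (Sqstm1, Map1lc3b, Gabarapl1 and Bnip3). They were taken by symbol from a table of read counts for 44792 genes in mouse hearts, and all 10 were found there and passed the filter on low counts. RNA had been sequenced from hearts of C57BL/6 mice at 3 months of age, untreated, with 1 library for each heart. In 3 of the hearts the labels give the cTnI R193H mutation, a substitution in cardiac troponin I, the inhibitory subunit of the troponin complex, and 3 hearts were wild type. Hearts within a genotype are described as biological repeats, and the study looked for genes whose expression differs between mutant and wild type. The sources used here do not give zygosity, the way the allele was made or the part of the heart that was taken.

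Muscle protein is broken down mainly by the proteasome and by autophagy. Ubiquitin ligases such as MuRF1 (Trim63) and atrogin-1 (Fbxo32) mark muscle proteins for the proteasome, and their messenger RNAs rise in wasting skeletal muscle. FoxO factors enter the nucleus when insulin and Akt signalling is low and switch on both ligases together with autophagy genes. In the heart, loss of these ligases is known to alter growth under load, and autophagy removes damaged mitochondria and protein aggregates.

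The 5′ flanks of the genes were searched for the FoxO element GTAAACA, on both strands, and for the palindromic E-box CACGTG, which basic helix-loop-helix factors such as TFEB bind. Promoter sequences (RefSeq, GRCm38.p6) were at hand for 8 of the 10 genes. No sequence is shown for Fbxo32 and Trim55. In the 250 bases upstream of the start site, Trim63 held the FoxO element, read as TGTTTAC on the gene's strand, 194 to 188 bases upstream. Of all 32851 promoters in the table, 3.17% held it in the same window. Bnip3 held the E-box, 108 to 103 bases upstream, as did 6.02% of all promoters. The other 6 sequences held neither set of letters. A match of letters is a description and shows no binding. The flanks of these 2 genes are shown because they carry the matched letters, which are in capitals.
Trim63 (chr4:134314870-134315119, plus strand): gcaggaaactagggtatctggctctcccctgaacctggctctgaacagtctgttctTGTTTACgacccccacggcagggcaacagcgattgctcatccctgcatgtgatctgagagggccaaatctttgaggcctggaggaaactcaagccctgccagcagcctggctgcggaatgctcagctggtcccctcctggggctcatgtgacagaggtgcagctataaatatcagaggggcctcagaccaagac
Bnip3 (chr7:138909507-138909756, minus strand): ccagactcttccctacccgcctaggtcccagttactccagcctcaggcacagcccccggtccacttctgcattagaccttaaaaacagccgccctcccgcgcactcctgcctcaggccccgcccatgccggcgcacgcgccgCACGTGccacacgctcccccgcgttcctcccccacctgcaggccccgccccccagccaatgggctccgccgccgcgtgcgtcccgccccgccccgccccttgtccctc

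Levels are given as CPM, a gene's read count divided by its library total, after the totals were adjusted with trimmed mean of M values (TMM) factors. Differences between genotypes are given as log2 fold changes of R193H over wild type, with standard errors (SE) and 95% intervals from edgeR's quasi-likelihood fit across 14370 genes. A gene was called where its Benjamini-Hochberg adjusted p, taken across every tested gene, was under 0.05. None of the 10 genes was called by edgeR, DESeq2 or limma-voom, and in each tool 1 of them, Foxo3, had an unadjusted p under 0.05. Over all genes, edgeR called 0.00696%, which is 1 mitochondrial transfer RNA gene (TrnL1), and 5.73% had an unadjusted p under 0.05. DESeq2 called 40 of 23747 genes and limma-voom called 1 of 14370. The R193H and wild type hearts overlapped for all 10 genes, while 11.8% of all genes had groups that did not overlap. The 95% intervals of the ratio of R193H to wild type ran no lower than 0.697 and no higher than 1.26 for any of the 10 genes.

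Library totals ran from 19582600 to 21852210 counts in R193H hearts and from 14736067 to 20652534 in wild type hearts. R193H replicate 2 stood apart on the first principal component (27.8% of the variance). Mitochondrially encoded genes held 35.2%, 30.9% and 35.4% of counts in R193H replicates 1, 2 and 3, against 36.7% to 36.8% in wild type hearts. The part of these shares in the gene levels was not tested. All 12 ventricular muscle markers were measured, with sums of 62419 to 67047 CPM in R193H hearts and 68659 to 71723 CPM in wild type hearts. Of the markers of fast skeletal muscle, which also uses these ligases, Myh4 had 0 counts in every heart. The 5 of 12 that passed the filter summed to 17.5 to 42.1 CPM in R193H hearts and 19.4 to 36.7 CPM in wild type hearts. Most of these sums came from Mybpc2, which averaged 27.1 CPM in R193H hearts and 24.0 CPM in wild type hearts. In whole tissue, fewer cells of a type and less RNA per cell cannot be told apart. The gene that carries the mutation, Tnni3, measured 3748 ± 135 CPM in R193H hearts and 3317 ± 136 CPM in wild type hearts (SD, n = 3 each). Every R193H heart, at 3641 to 3900 CPM, lay above every wild type heart, at 3202 to 3466 CPM (edgeR unadjusted p = 0.0529, adjusted p = 0.863). Counts per gene do not show the substituted base.

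**Figure D1:**
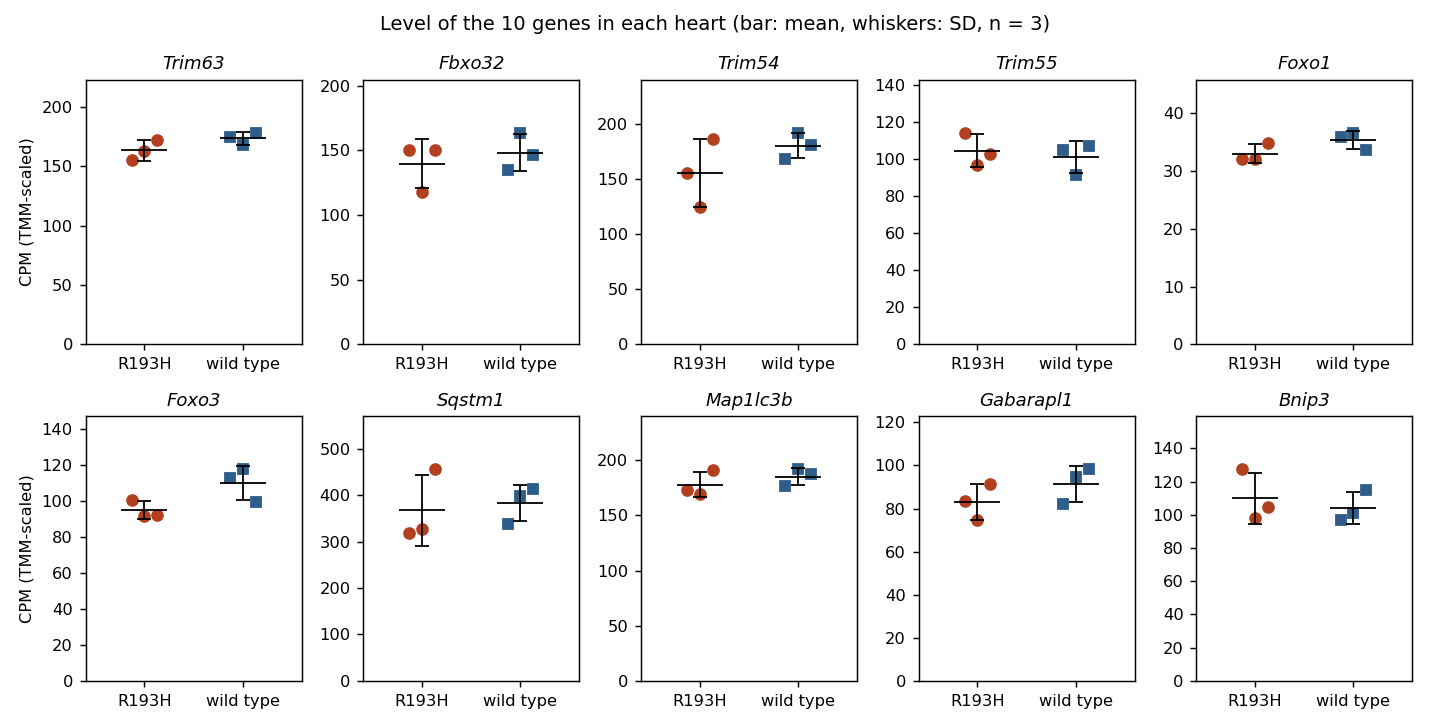
CPM of each of the 10 genes in R193H hearts (circles, left) and wild type hearts (squares, right), with 1 point for each heart, the mean as a bar and the SD as whiskers (n = 3 each). In all 10 panels the points of the 2 genotypes overlap in range, and the widest scatter is in R193H hearts for Sqstm1 and Trim54.

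Trim63 encodes MuRF1, a RING-type ubiquitin ligase of the sarcomere M-band that marks thick filament proteins for breakdown (GRCm38 chromosome 4, 134315120 to 134329629). It measured 155, 163 and 173 CPM in R193H replicates 1, 2 and 3, against 175, 168 and 179 CPM in wild type replicates 1, 2 and 3. R193H replicate 3 lay above wild type replicate 2, and the other R193H hearts lay below all wild type hearts. On the log2 scale the difference was -0.086 (SE 0.078), a ratio of 0.942 with a 95% interval from 0.835 to 1.06 (edgeR adjusted p = 0.908). With plain library totals the log2 difference was 0.040, where the median over all genes was 0.13. The coefficient of variation was 5.28% in R193H hearts and 3.15% in wild type hearts, with counting error alone at no more than 2.02%.

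Fbxo32 encodes atrogin-1, the F-box subunit that brings substrates to an SCF ubiquitin ligase (chromosome 15, 58175879 to 58214932). It measured 151, 118 and 151 CPM in R193H replicates 1, 2 and 3, against 135, 164 and 146 CPM in wild type replicates 1, 2 and 3. R193H replicate 2 was the lowest heart, and the other R193H hearts lay inside the wild type range. The log2 fold change was -0.088 (SE 0.12, edgeR adjusted p = 0.934), and the 95% interval of the ratio ran from 0.787 to 1.12. Without R193H replicate 2, the log2 fold change was 0.024. With plain library totals it was 0.032, where the median over all genes was 0.13.

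Trim54 encodes MuRF3, a relative of MuRF1 that also binds microtubules (chromosome 5, 31116712 to 31137630). Its values were 155, 125 and 187 CPM in R193H replicates 1, 2 and 3, against 169, 192 and 181 CPM in wild type replicates 1, 2 and 3. R193H replicates 1 and 2 lay below all wild type hearts, and R193H replicate 3 fell within their span. Its log2 fold change of -0.22 (SE 0.14) was the furthest from 0 among the 10 genes, with an edgeR adjusted p of 0.900. It stood at -0.078 without R193H replicate 2 and at -0.36 without R193H replicate 3. A total of 26.6% of its exonic length is shared with an antisense gene, and reads of both cannot be told apart where the counting did not use strand.

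Trim55 encodes MuRF2, the MuRF member that links titin, microtubules and signalling to the nucleus (chromosome 3, 19644474 to 19692421). It measured 114, 96.9 and 103 CPM in R193H replicates 1, 2 and 3, against 105, 91.6 and 107 CPM in wild type replicates 1, 2 and 3. R193H replicate 1 was the highest heart and wild type replicate 2 the lowest, with the others between them. Its fold change on the log2 scale was 0.045 (SE 0.094, edgeR adjusted p = 0.963), and it was -0.025 without R193H replicate 1 and -0.024 without wild type replicate 2.

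Levels of different genes were compared per length, as CPM per kilobase of exon (GENCODE M21). Among the MuRF genes, Trim54 came first with 108 ± 21.5 in R193H hearts and 126 ± 8.2 in wild type hearts (SD, n = 3 each). Trim63 followed with 57.6 ± 3.04 in R193H hearts and 61.1 ± 1.92 in wild type hearts. Trim55 came last with 39.4 ± 3.36 in R193H hearts and 38.1 ± 3.23 in wild type hearts. Of the summed MuRF level per length, Trim63 made up 28.3% ± 2.98 in R193H hearts and 27.2% ± 1.11 in wild type hearts. Trim54 made up 52.4% ± 4.27 and Trim55 19.3% ± 2.17 in R193H hearts, against 55.9% ± 2.69 and 17.0% ± 1.59 in wild type hearts. These differences in share were not tested.

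Foxo3 and Foxo1 encode forkhead transcription factors that Akt keeps out of the nucleus by phosphorylation. Messenger RNA levels do not show where the protein is in the cell. Foxo3 (chromosome 10, 42181841 to 42276755) measured 101, 91.6 and 92.5 CPM in R193H replicates 1, 2 and 3, against 113, 118 and 99.6 CPM in wild type replicates 1, 2 and 3. R193H replicate 1 lay just above wild type replicate 3, and the other hearts of the 2 groups did not overlap. R193H over wild type gave -0.21 on the log2 scale (SE 0.088), and the 95% interval of the ratio, 0.752 to 0.987, covers this gene alone and not the search over all genes. The edgeR unadjusted p of 0.0351 was 0.816 after adjustment, and an exact two-sided permutation test over the 6 hearts gave p = 0.2, where 0.1 is the smallest possible. With each heart left out in turn the log2 fold change stayed between -0.28 and -0.16, with edgeR unadjusted p from 0.0109 (without wild type replicate 3) to 0.120 (without wild type replicate 2), and the lowest adjusted p in any setting was 0.642 (without R193H replicate 3). With plain library totals the log2 fold change was -0.087 (edgeR unadjusted p = 0.333), where the median over all genes was 0.13. Scaled to the ventricular markers, a choice made after seeing the data, it was -0.14 (edgeR unadjusted p = 0.102). Under that scaling the median over all genes was 0.072, against -0.00036 in the main fit.

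Foxo1 (chromosome 3, 52268336 to 52353221) measured 32.0, 32.0 and 34.9 CPM in R193H replicates 1, 2 and 3, against 35.8, 36.7 and 33.7 CPM in wild type replicates 1, 2 and 3. R193H replicate 3 lay above the lowest wild type heart, and the other R193H hearts lay below all wild type hearts. The log2 fold change was -0.10 (SE 0.082, edgeR adjusted p = 0.901), with a 95% interval of the ratio from 0.821 to 1.06. Per kilobase of exon, Foxo3 stood at 12.5 ± 0.665 in R193H hearts and 14.6 ± 1.24 in wild type hearts, and Foxo1 at 3.81 ± 0.191 in R193H hearts and 4.08 ± 0.179 in wild type hearts (SD, n = 3 each). Foxo4, another FoxO gene, stood at 14.9 ± 1.04 CPM per kilobase in R193H hearts and 16.0 ± 0.824 in wild type hearts, and it made up 45.4% of the summed FoxO level per length in R193H hearts and 44.2% in wild type hearts. Foxo3 made up 38.3% in R193H hearts and 40.2% in wild type hearts. Foxo6 was lowest, at 1.505 ± 0.501 in R193H hearts and 1.57 ± 0.547 in wild type hearts.

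**Figure D2:**
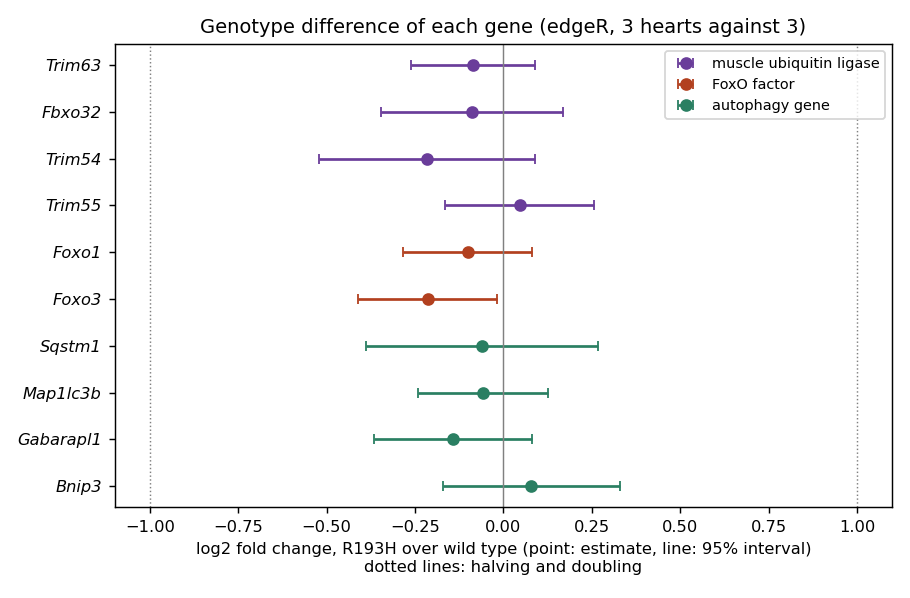
Log2 fold change of R193H over wild type for each of the 10 genes (points, edgeR, 3 hearts against 3) with its 95% interval (lines), coloured by role. Estimates lie between -0.22 (Trim54) and 0.079 (Bnip3), no interval reaches the dotted lines that mark log2 fold changes of -1 and 1, and the interval of Foxo3 lies below 0 before adjustment.

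Sqstm1 encodes p62, the receptor that carries ubiquitin-marked cargo into autophagosomes (chromosome 11, 50199366 to 50210827). It measured 319, 327 and 456 CPM in R193H replicates 1, 2 and 3, against 338, 398 and 413 CPM in wild type replicates 1, 2 and 3. R193H replicate 3 was the highest heart and the other R193H hearts were the lowest, so wild type lay between them. Its log2 fold change was -0.060 (SE 0.14, edgeR adjusted p = 0.970). It was -0.24 without R193H replicate 3, 0.031 without R193H replicate 1 and 0.019 without R193H replicate 2. The opposite-strand gene Mrnip shares 17.3% of its exonic length.

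Map1lc3b encodes LC3B, the ubiquitin-like protein that is joined to the autophagosome membrane (chromosome 8, 121590361 to 121598760). It measured 173, 170 and 191 CPM in R193H replicates 1, 2 and 3, against 176, 192 and 187 CPM in wild type replicates 1, 2 and 3. R193H replicates 1 and 2 lay below the wild type hearts, and replicate 3 lay inside their range. The log2 fold change was -0.059 (SE 0.082, edgeR adjusted p = 0.938).

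Gabarapl1 belongs to the GABARAP branch of the same protein family and is a known FoxO target (chromosome 6, 129533160 to 129542346). It measured 83.4, 74.6 and 91.2 CPM in R193H replicates 1, 2 and 3, against 82.2, 94.4 and 98.2 CPM in wild type replicates 1, 2 and 3. R193H replicate 2 was the lowest heart, and the other R193H hearts lay inside the wild type range. The log2 fold change was -0.14 (SE 0.10, edgeR adjusted p = 0.900), with a 95% interval of the ratio from 0.776 to 1.06. It was -0.020 with plain library totals, where the median over all genes was 0.13, and -0.069 without R193H replicate 2. An opposite-strand transcript shares 28.3% of its exonic length.

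Bnip3 encodes an outer mitochondrial membrane protein that binds LC3 and draws mitochondria into autophagosomes (chromosome 7, 138890836 to 138909519). It measured 127, 97.8 and 105 CPM in R193H replicates 1, 2 and 3, against 96.6, 101 and 115 CPM in wild type replicates 1, 2 and 3. R193H replicate 1 was the highest heart, and the other R193H hearts lay inside the wild type range. The log2 fold change was 0.079 (SE 0.11, edgeR adjusted p = 0.939) and stood at -0.041 without R193H replicate 1. Its count is uncertain, because 47.2% of the 50-base words in its transcripts also occur, on either strand, in transcripts of other annotated genes. Among these is an antisense gene that shares 22.3% of the exonic length of Bnip3. The same share of words was 23.1% for Gabarapl1, 18.4% for Trim54 and 15.5% for Sqstm1. For each of them the only other gene was the opposite-strand one already given. The share was 0% for Trim63, Trim55 and Foxo3.

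Per kilobase of exon, Map1lc3a, Gabarap and Gabarapl1 had higher levels than Map1lc3b, and Gabarapl2 a lower level. Map1lc3a stood at 156 ± 7.36 in R193H hearts and 162 ± 12.98 in wild type hearts, and Gabarap at 115 ± 10.2 in R193H hearts and 115 ± 6.02 in wild type hearts (SD, n = 3 each). Gabarapl1 stood at 41.3 ± 4.12 in R193H hearts and 45.5 ± 4.15 in wild type hearts, and Map1lc3b at 23.6 ± 1.53 in R193H hearts and 24.6 ± 1.05 in wild type hearts. Gabarapl2 stood at 11.4 ± 0.712 in R193H hearts and 12.1 ± 0.189 in wild type hearts. The order depends on annotated exon length, which is 7517 bases for Map1lc3b and 1181 bases for Map1lc3a. Bnip3 made up 77.4% ± 2.36 of the summed level per length of Bnip3 and its relative Bnip3l in R193H hearts, and 76.5% ± 2.18 in wild type hearts.

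Across all 10 genes, the order of levels per length in wild type hearts was Trim54, Sqstm1, Trim63, Bnip3, Gabarapl1, Trim55, Map1lc3b, Fbxo32, Foxo3 and Foxo1. In wild type hearts, neighbours in this order overlapped for Trim54 and Sqstm1, for Bnip3 and Gabarapl1, and for Map1lc3b and Fbxo32. In R193H hearts, the overlapping neighbours of the same order were Trim54 and Sqstm1, Trim63 and Bnip3, Bnip3 and Gabarapl1, and Gabarapl1 and Trim55. Sqstm1 measured 109 ± 22.8 in R193H hearts and 114 ± 11.8 in wild type hearts, and Fbxo32 measured 20.02 ± 2.74 CPM per kilobase in R193H hearts and 21.3 ± 2.08 in wild type hearts.

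Of the 10 genes, 8 had a fitted log2 fold change under 0, against 50.1% of all genes, but 3 of the 10 did so when plain library totals were used, against 21.3% of all genes. Their median was -0.087, against -0.00036 over all genes, and with plain library totals it was 0.036, against 0.13 over all genes. Without R193H replicate 2, 6 lay under 0 and the median was -0.047. Scaled to the ventricular markers, 6 of the 10 lay under 0, against 32.0% of all genes, and the median was -0.015, against 0.072 over all genes. The 10 genes were chosen by name, so these counts are a description.

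**Figure D3:**
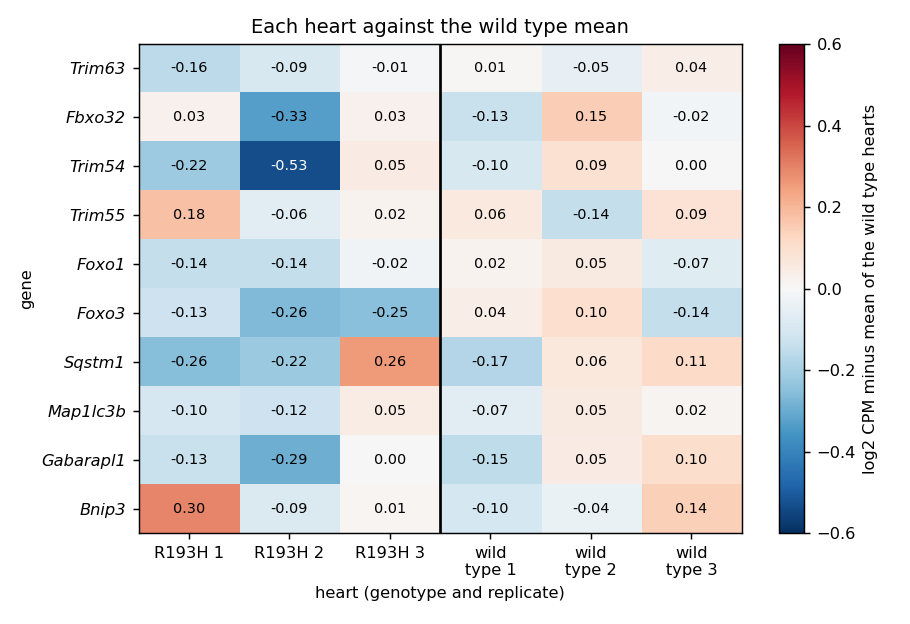
Log2 CPM of each gene (down) in each heart (across), minus the mean of the wild type hearts, with the value printed in each cell and a vertical line between R193H hearts (left) and wild type hearts (right). R193H replicate 2 holds the lowest cells, -0.53 for Trim54 and -0.33 for Fbxo32, and R193H replicate 3 is close to the wild type mean for most genes except Sqstm1 and Foxo3.

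The coefficient of variation of the 10 genes ran from 5.01% to 20.8% in R193H hearts and from 3.15% to 10.3% in wild type hearts. R193H replicate 2 was the lowest heart for 5 of the 10 genes, while it was lowest for 23.9% of all genes. R193H replicate 1 was lowest for 3 of the 10, and R193H replicate 3 for none. The median of the 10 genes relative to the wild type mean was -0.13, -0.18 and 0.017 in R193H replicates 1, 2 and 3, against -0.082, 0.052 and 0.029 in wild type replicates 1, 2 and 3. R193H replicate 2 also had the lowest sum of the 12 ventricular markers, at 62419 CPM, and the highest sum of the 9 fibroblast markers, at 2234 CPM. The other R193H hearts had fibroblast sums of 1429 and 1460 CPM, against 1331 to 1571 CPM in wild type hearts, and the part of these markers in the levels was not tested.

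Likeness over the 6 hearts was measured as the root mean square difference of log2 CPM, each gene centred on its own mean, among 7659 genes with a mean of at least 10 CPM. The closest members were Foxo1 and Map1lc3b (0.057), Trim63 and Map1lc3b (0.062) and Trim63 and Foxo1 (0.065), and the most distant were Sqstm1 and Bnip3 (0.25). Among all other genes, those closest to Trim63 were Ttbk2, Trim44, Dcaf12, Rabl6 and Trappc3, at 0.016 to 0.019, where Trim63 itself varied with an SD of 0.073. Closest to Fbxo32 were Mtg2, Osbpl3, Metrn, Klhdc1 and Gyg, at 0.031 to 0.044, where Fbxo32 had an SD of 0.17. Genes near Trim63 by this measure are thus also genes that varied little.

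Other ubiquitin ligases of muscle, with cofactors and some deubiquitinases, were set beside the 4 ligases. Of 30 genes, none was called by edgeR, DESeq2 or limma-voom. An unadjusted edgeR p under 0.05 was seen for 4, against 5.73% of all genes. A fitted log2 fold change under 0 was seen for 25 (83.3%), against 50.1% of all genes. Under library totals 8 (26.7%) lay under 0, against 21.3% of all genes. The median was -0.086, and under library totals it was 0.034, against 0.13 over all genes. The groups did not overlap for 7 of the 30 genes, against 11.8% of all genes. Ubr2, an N-end rule ligase that is induced in wasting muscle, measured 117, 99.8 and 117 CPM in R193H replicates 1, 2 and 3, against 133, 145 and 141 CPM in wild type replicates 1, 2 and 3. Its groups did not overlap, and its log2 fold change was -0.33 (SE 0.089, edgeR adjusted p = 0.722). The related Ubr4 averaged 45.5 ± 0.992 CPM in R193H hearts and 55.6 ± 4.45 CPM in wild type hearts (log2 fold change -0.29, SE 0.083, edgeR adjusted p = 0.722). Asb2, a muscle ligase subunit that targets filamins, averaged 468 ± 25.95 CPM in R193H hearts and 546 ± 20.1 CPM in wild type hearts (log2 fold change -0.22, SE 0.081, edgeR adjusted p = 0.781). The HECT-type ligase Itch stood at -0.28 (SE 0.12). The ventricular marker sums also did not overlap between groups, with a median log2 fold change of -0.11 over the 12 markers. Of these markers, 10 lay under 0 and 2 above it, with Tcap furthest above at 0.46 (SE 0.19). The part of these markers in the values of the 30 genes was not tested.

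FoxO regulators and relatives, among them genes of the insulin and Akt pathway, had 31 tested genes of 33. Sgk1 and Sgk3 did not pass the filter. None was called by edgeR, DESeq2 or limma-voom, and 3 had an unadjusted edgeR p under 0.05, against 5.73% of all genes. A log2 fold change under 0 was seen for 22 (71.0%), against 50.1% of all genes. Under library totals 9 (29.0%) lay under 0, against 21.3% of all genes. The median was -0.076 (0.053 under library totals). Groups did not overlap for 4 of the 31, against 11.8% of all genes. Igf1, a growth factor that activates Akt, measured 20.1, 25.2 and 17.4 CPM in R193H replicates 1, 2 and 3, against 15.3, 15.4 and 16.0 CPM in wild type replicates 1, 2 and 3. Every R193H heart lay above every wild type heart (log2 fold change 0.42, SE 0.14, edgeR adjusted p = 0.722). The 12 macrophage markers summed to 595, 650 and 456 CPM in R193H replicates 1, 2 and 3, against 381, 383 and 441 CPM in wild type replicates 1, 2 and 3, and their part in the Igf1 values was not tested. Tsc2, a brake on mTOR, stood at -0.22 (SE 0.080) and the insulin receptor gene Insr at -0.32 (SE 0.13), with edgeR adjusted p of 0.781 and 0.843. Usp7, a deubiquitinase that acts on FoxO proteins, averaged 72.8 ± 4.63 CPM in R193H hearts and 80.8 ± 5.25 CPM in wild type hearts (log2 fold change -0.15, SE 0.084, edgeR adjusted p = 0.892). Insr ranged from 129 to 191 CPM in R193H hearts and from 185 to 208 CPM in wild type hearts.

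Of 32 other genes that FoxO factors are known to regulate, some also stand in the other lists, so the lists are not separate sets. A log2 fold change under 0 was seen for 17 (53.1%) and above 0 for 15, against 50.1% of all genes under 0. With library totals 7 (21.9%) lay under 0, against 21.3% of all genes. The median was -0.028 (0.0997 with library totals), and groups did not overlap for 3, against 11.8% of all genes. None was called by the 3 tools, and 1 had an unadjusted edgeR p under 0.05, against 5.73% of all genes. That gene was Ppargc1a, the coactivator PGC-1alpha that promotes mitochondrial growth, at 103, 77.2 and 115 CPM in R193H replicates 1, 2 and 3, against 118, 128 and 134 CPM in wild type replicates 1, 2 and 3. All R193H hearts lay below all wild type hearts (log2 fold change -0.36, SE 0.14, edgeR adjusted p = 0.793). The stress sensors Sesn1 and Sesn2 stood at -0.16 (SE 0.090) and 0.38 (SE 0.25), and the apoptosis gene Bbc3 at 0.46 (SE 0.21). Sesn2 and Bbc3 had low levels, averaging 4.70 and 3.47 CPM in R193H hearts and 3.59 and 2.51 CPM in wild type hearts.

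**Figure D4:**
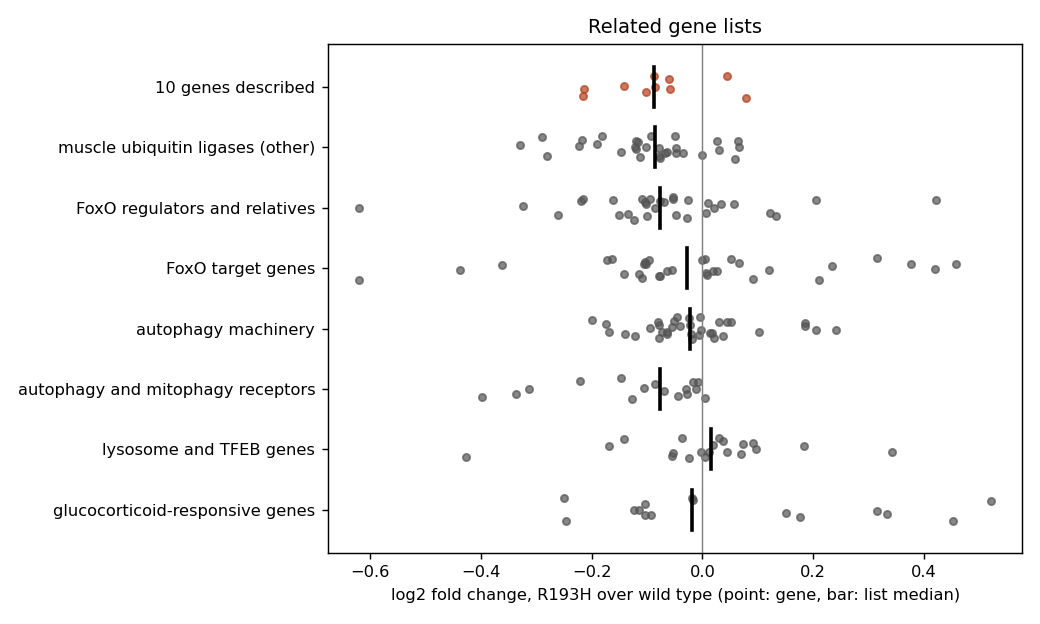
Log2 fold change of R193H over wild type for every tested gene (points) of the 10 genes described and of 7 related lists, with the median of each list as a bar. The medians lie between -0.087 and 0.015 (between 0.034 and 0.15 with plain library totals), and points of every list fall on both sides of 0. Over all genes the median was -0.00036 (0.13 with plain library totals). Some genes stand in several lists.

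The machinery of autophagy had 35 tested genes, with none called by the 3 tools. None had an unadjusted edgeR p under 0.05, against 5.73% of all genes. Of the 35 genes, 23 (65.7%) had a log2 fold change under 0, against 50.1% of all genes. Under library totals 4 (11.4%) did, against 21.3% of all genes. The median was -0.022 (0.11 under library totals). Groups did not overlap for 3 of the 35, against 11.8% of all genes. The SNARE gene Vamp8, needed for fusion of autophagosomes with lysosomes, measured 27.0, 27.1 and 27.5 CPM in R193H replicates 1, 2 and 3, against 22.4, 23.6 and 25.6 CPM in wild type replicates 1, 2 and 3 (log2 fold change 0.19, SE 0.087, edgeR adjusted p = 0.863). The groups did not overlap for it. The lipid transfer gene Atg2a stood at -0.17 (SE 0.082), Atg9a, a scramblase of the growing membrane, at -0.17 (SE 0.092), and the protease Atg4a at 0.21 (SE 0.12).

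Of 16 other receptors of autophagy and mitophagy, 15 (93.8%) had a log2 fold change under 0, against 50.1% of all genes. Under library totals 6 (37.5%) did, against 21.3% of all genes. The median was -0.077 (0.045 under library totals). None was called by the 3 tools, and none had an unadjusted edgeR p under 0.05, against 5.73% of all genes. Groups did not overlap for 1 of the 16, against 11.8% of all genes. Wdfy3, which brings aggregates to autophagosomes, averaged 72.0 ± 3.28 CPM in R193H hearts and 79.6 ± 1.44 CPM in wild type hearts (log2 fold change -0.15, SE 0.074). Optn, a mitophagy receptor, measured 74.2, 57.7 and 114 CPM in R193H replicates 1, 2 and 3, against 99.6, 99.2 and 106 CPM in wild type replicates 1, 2 and 3. R193H replicate 3 was the highest heart and R193H replicate 2 the lowest. The endoplasmic reticulum receptor gene Fam134b stood at -0.34 (SE 0.16) and Calcoco1 at -0.13 (SE 0.094).

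Lysosomal genes and their TFE regulators numbered 20, with 8 (40%) under 0 and 12 above it, against 50.1% of all genes under 0. With library totals 3 (15%) lay under 0, against 21.3% of all genes. The median was 0.015 (0.15 with library totals). Groups did not overlap for 2 of the 20, against 11.8% of all genes. None was called by the 3 tools, and 1 had an unadjusted edgeR p under 0.05, against 5.73% of all genes. Mcoln1, a calcium channel of the lysosomal membrane, measured 24.5, 22.3 and 24.4 CPM in R193H replicates 1, 2 and 3, against 25.8, 24.6 and 28.0 CPM in wild type replicates 1, 2 and 3. Its groups did not overlap, and its log2 fold change was -0.14 (SE 0.091, edgeR adjusted p = 0.900).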

How the data were processed

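Trizol was used to extract total RNA, and standard Illumina libraries were made, per the labels' protocols. The submitters' processing notes name HISAT2 2.0.4 and GRCm38. The authors deposited raw gene counts as whole numbers in 1 table. The sources used here do not give the counting program or its handling of strand and of reads with several matches. Hearts were identified by sample title, and replicate numbers follow the order of listing and pair no hearts.

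The counts were fitted with edgeR 4.0.16 in R 4.3.3 (filterByExpr, TMM, robust quasi-likelihood, no covariate), with DESeq2 1.42.0 and limma 3.58.1 (voom) as alternatives. The filter kept 14370 genes. Log2 CPM used a prior count of 2, and SE is the size of the log2 fold change divided by the root of F. In a chi-square comparison of counts, all pairs of hearts differed beyond counting noise. Coordinates, exon lengths and overlaps come from GENCODE M21 on GRCm38. Scripts were tested on simulated data. Named were all 10 genes, up to 4 of each list by lowest p, the 5 nearest to each of Trim63 and Fbxo32, and Tnni3, leaving out provisional names and pseudogenes. TrnL1, Mrnip, Myh4, Sgk1, Sgk3 and the relatives Foxo4, Foxo6, Map1lc3a, Gabarap, Gabarapl2 and Bnip3l were named outside that rule, with their values seen. Some genes of the lysosome list that the rule selects are not reported here. Members and lists were chosen with earlier results of these data known.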

Additional observations from a re-analysis of the deposited data

How the results depend on the processing

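None of the 10 genes was called under any of the 16 alternatives, and 147 of the 160 gene values kept their sign. Library totals turned Trim63 to 0.040, Fbxo32 to 0.032, Foxo1 to 0.024, Sqstm1 to 0.061 and Map1lc3b to 0.066. They also put Trim54 at -0.098, Trim55 at 0.17, Foxo3 at -0.087, Gabarapl1 at -0.020 and Bnip3 at 0.20. Scaling to the ventricular markers, chosen after seeing the data, turned Sqstm1 to 0.013 and Map1lc3b to 0.014. With hearts left out, Fbxo32 ran from -0.15 to 0.024, Trim55 from -0.025 to 0.10, Sqstm1 from -0.24 to 0.031 and Bnip3 from -0.041 to 0.16.

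Under library totals the median of all genes was 0.13, and the medians were 0.036 for the 10 genes, 0.034 for other ligases, 0.053 for FoxO regulators, 0.0997 for FoxO targets, 0.11 for autophagy machinery, 0.045 for receptors and 0.15 for lysosome genes. Scaled to ventricular markers the median of all genes was 0.072, and the medians were -0.016 for other ligases, 5.55e-06 for FoxO regulators, 0.044 for FoxO targets, 0.052 for autophagy machinery and 0.090 for lysosome genes. Hearts left out gave -0.13 to -0.030 for FoxO regulators and -0.059 to -0.012 for autophagy machinery. Over all genes, edgeR called 0 with mitochondrial genes left out and 38 with no filter, DESeq2 called 40, and 3 to 21 were called with a heart left out. The cause was not tested.

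No paired analysis was possible because the labels give the hearts no shared replicate numbers. With 3 hearts a group, no permutation p can go under 0.1. Counts of 505 to 9784 per gene and heart keep counting error at 4.45% or less, which for Foxo1 is about as large as the spread between hearts (coefficient of variation 5.01% in R193H and 4.39% in wild type).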

Other observations

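Both ligases and several FoxO targets also respond to glucocorticoids in muscle. Of 16 glucocorticoid-responsive genes, 15 were tested, as Sgk1 did not pass the filter. Of these, 9 (60%) had a log2 fold change under 0, against 50.1% of all genes, and the median was -0.018. With plain library totals 4 (26.7%) lay under 0, against 21.3% of all genes, and the median was 0.098. None was called by edgeR, DESeq2 or limma-voom, and none had an unadjusted edgeR p under 0.05, against 5.73% of all genes. Their summed level was 1057, 784 and 934 CPM in R193H replicates 1, 2 and 3, against 779, 954 and 1022 CPM in wild type replicates 1, 2 and 3, so hearts of each group spread over nearly the same range. The median moved to -0.23 without R193H replicate 1 and to 0.16 without R193H replicate 2. Pdk4, a kinase that turns the heart from glucose towards fat and a FoxO target as well, measured 195, 213 and 276 CPM in R193H replicates 1, 2 and 3, against 117, 231 and 202 CPM in wild type replicates 1, 2 and 3 (log2 fold change 0.32, SE 0.28, edgeR adjusted p = 0.908). Wild type replicate 1 was lowest for it. Lcn2, Angptl4 and Klf9 stood at 0.52 (SE 0.31), 0.33 (SE 0.22) and -0.093 (SE 0.099). Lcn2 and Angptl4 had low levels, averaging 1.92 and 3.77 CPM in R193H hearts and 1.34 and 3.01 CPM in wild type hearts, and their groups overlapped.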
